A study of Mus musculus with 6 samples.

Results

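The genes described here encode enzymes of the tricarboxylic acid (TCA) cycle: citrate synthase (Cs), the 3 subunits of the NAD-dependent isocitrate dehydrogenase (Idh3a, Idh3b, Idh3g), the oxoglutarate dehydrogenase E1 subunit (Ogdh), the ATP-forming beta subunit and the shared alpha subunit of succinyl-CoA ligase (Sucla2, Suclg1), fumarate hydratase (Fh1) and mitochondrial malate dehydrogenase (Mdh2). They were chosen by name, from their known function, and are 9 of the 17558 genes in the deposited table. All 9 were among the 12643 genes that passed the filter on low counts. RNA was sequenced from the mouse myoblast line C2C12, which is immortalized and forms myotubes in low serum. Cells were harvested 48 h after the start of differentiation in medium with 2% horse serum and an insulin, transferrin and selenium supplement. Before that the cells had grown in medium with 10% fetal bovine serum. There were 3 groups of 2 libraries. Control cells stably carried a non-targeting scrambled hairpin (shScr, genotype given as WT). The others stably carried a hairpin against the Pkm1 isoform (ShPkm1) or the Pkm2 isoform (ShPkm2) of pyruvate kinase. The labels do not say whether a group was 1 clone or a pool, nor whether its libraries came from separate cultures, so p-values measure only the spread between these libraries.

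The TCA cycle runs in the mitochondrial matrix. Citrate synthase joins acetyl-CoA to oxaloacetate, the following dehydrogenases release carbon dioxide and load NADH, succinyl-CoA ligase makes ATP or GTP directly, and fumarate hydratase and malate dehydrogenase return the carbon to oxaloacetate. Pyruvate kinase acts upstream, making the pyruvate from which much of the acetyl-CoA is formed. Differentiating muscle cells are known to raise their oxidative capacity, and citrate synthase is widely used as a measure of mitochondrial content in muscle.

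Library totals lay between 18216896 and 19796036 estimated counts. Pkm, the targeted gene, fell in ShPkm1 (log2 fold change -0.63 against shScr, SE 0.133, adjusted p 0.00107 in edgeR's quasi-likelihood test), a call lost with limma on log2(TPM + 1), where TPM is transcript abundance per length with the same sum in every library (-0.24, adjusted p 0.124). The ShPkm2-labelled libraries gave 0.20 for it (SE 0.133, adjusted p 0.198), and with library totals or TPM as the scale, or without shScr replicate 2, it was called higher there (0.31 to 0.66). The transcript NM_011099.3, which encodes the Pkm2 isoform of Pkm, stood at 1072.9 and 1516.7 TPM in shScr, 1278.1 and 1379.5 in ShPkm1, and 2699.7 and 2629.5 in the ShPkm2-labelled libraries. NM_001253883.1, which encodes the Pkm1 isoform, stood at 545.8 and 588.8 TPM in shScr, 242.7 and 218.2 in ShPkm1, and 254.1 and 254.2 in the ShPkm2-labelled libraries, below shScr in both hairpin groups. The isoform named by the ShPkm2 label was thus not lower under that label, and those libraries are named by label throughout. Markers of the differentiation state also differed between the groups. The summed TPM of 6 myotube genes ran from 13560 to 20050 in shScr, from 6337 to 6561 in ShPkm1 and from 171 to 171.8 in the ShPkm2-labelled libraries. All 6 fell in both comparisons with shScr. For 4 genes of dividing cells the sum ran from 65.7 to 88.0, from 173 to 177 and from 504.5 to 563.8 in the same order, and for 4 myoblast genes from 2555 to 2641, 2264 to 2400 and 827 to 900.3. Most of that sum is Des. In the ShPkm2-labelled libraries Des, Myod1 and Pax7 fell against shScr (log2 fold changes -2.13, -2.22 and -3.08), while Myf5 rose (1.74, adjusted p 9.39e-09). Fat cell, bone cell and macrophage markers summed to at most 1.49 TPM per list in any library, with 2 of 3 fat cell, 3 of 3 bone cell and 1 of 3 macrophage markers in the table. That macrophage gene, Csf1r, at most 0.87 TPM, was called higher in ShPkm1 (1.47) and lower in the ShPkm2-labelled libraries (-1.81). The bone cell gene Ibsp was at 0 in all libraries. In bulk RNA, fewer cells of a type and less RNA per cell cannot be told apart, and the part of these markers in the results below was not tested.

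The start regions of 3 enzymes are shown because their genes followed different courses over the groups. Suclg1 was lower with either hairpin, and Cs was called lower in ShPkm1 but not in the ShPkm2-labelled libraries. Ogdh alone, of the 8 genes searched, held a searched motif. The Ogdh region shown is 1 of the 2 that held it, and lies downstream of the gene's first annotated start. Each run spans 250 bases before to 50 bases after an annotated start, 5′ to 3′ on the gene's strand, from RefSeq on GRCm38.p6. Capitals mark GCGCATGC, the core of the motif of Nrf1, a factor known to act on nuclear genes for mitochondrial proteins.
Suclg1 (chr6:73248255-73248554, plus strand): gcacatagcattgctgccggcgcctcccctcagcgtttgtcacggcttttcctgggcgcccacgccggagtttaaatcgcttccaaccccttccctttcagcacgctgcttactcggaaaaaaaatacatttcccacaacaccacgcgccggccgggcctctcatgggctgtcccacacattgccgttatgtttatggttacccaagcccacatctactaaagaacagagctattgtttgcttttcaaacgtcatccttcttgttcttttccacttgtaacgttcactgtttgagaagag
Cs (chr10:128337477-128337776, plus strand): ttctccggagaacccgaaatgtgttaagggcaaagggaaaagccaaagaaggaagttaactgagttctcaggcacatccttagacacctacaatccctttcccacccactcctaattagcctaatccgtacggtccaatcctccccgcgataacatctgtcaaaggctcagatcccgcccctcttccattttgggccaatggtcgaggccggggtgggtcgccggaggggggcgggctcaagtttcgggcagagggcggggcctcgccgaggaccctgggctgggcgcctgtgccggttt
Ogdh (chr11:6292308-6292607, plus strand): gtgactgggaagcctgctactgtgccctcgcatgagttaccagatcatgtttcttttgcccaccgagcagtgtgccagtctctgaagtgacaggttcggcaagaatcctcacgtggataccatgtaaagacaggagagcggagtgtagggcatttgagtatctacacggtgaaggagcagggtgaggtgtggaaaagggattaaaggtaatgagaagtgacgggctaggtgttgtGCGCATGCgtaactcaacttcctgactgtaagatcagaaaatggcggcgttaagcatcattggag

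The promoter table held 13 start regions for 8 of the 9 genes. Idh3a had none in it and was not searched. GCGCATGC, searched on both strands, was in 2 of the 13, both of Ogdh, whose windows overlap and share 1 copy, 15 bases before the nearer start. The same letters were in 2.71% of the 32851 regions of that length. TCAAGGTCA, the response element of the estrogen-related receptors, which are known regulators of oxidative genes, was in none of the 13, against 0.42% of all. The muscle E-box CAGCTG was likewise in none, against 16.3% of all. These are matches of letters and not measured sites. The other Ogdh regions, among them the one at the start of the gene, held none of the searched motifs. Which start the Ogdh transcripts in these libraries used was not tested.

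Per length of transcript, Mdh2 was the most abundant of the 9 in every library, with 696.9 and 703.3 TPM in shScr. Cs and Idh3g came next there, at 304.7 and 311.9 TPM for Cs and 310.6 and 286.9 for Idh3g, so that the pair overlapped. Below them in shScr followed Suclg1, Idh3b, Ogdh and Fh1, none of which overlapped its neighbour, and then Sucla2 and Idh3a, which overlapped each other. The lowest values were 69.7 and 60.1 TPM for Idh3a, the catalytic subunit of isocitrate dehydrogenase. In ShPkm1 Cs dropped behind Idh3g, and Idh3b and Suclg1 overlapped. In the ShPkm2-labelled libraries all 9 were separate, with Cs second at 380.8 and 374.3 TPM and Suclg1 sixth, behind Ogdh. Added up, the 9 genes gave 2043 and 2047 TPM in shScr, 1819 and 1802 in ShPkm1, and 2113 and 2060 in the ShPkm2-labelled libraries. Mdh2 alone made up 34.2% of that sum in shScr and 41.4% in ShPkm1.

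**Figure D1:**
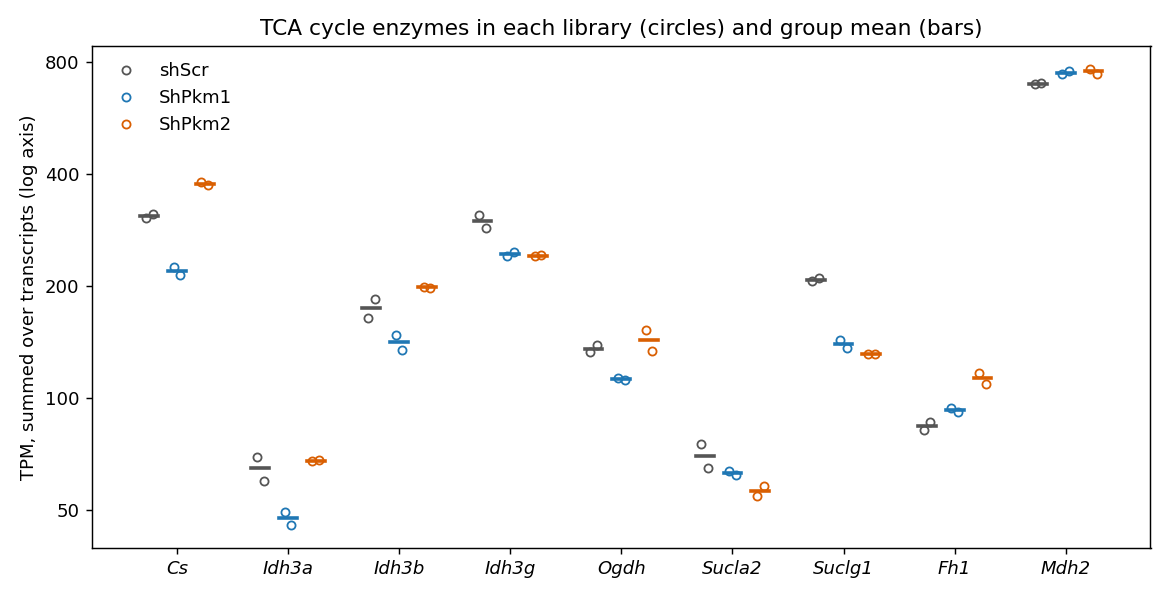
TPM of each TCA cycle enzyme (log axis) in the 6 libraries, with circles for libraries and bars for the mean of 2. Mdh2 lies at 696.9 to 767.9 TPM in all groups, while Cs and Suclg1 separate: Cs is highest and Suclg1 lowest in the ShPkm2-labelled libraries.

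All 9 enzymes fell in ShPkm1 against shScr, and none rose. The background was high: 31.4% of tested genes were called lower in this comparison and 31.8% higher, with a median log2 fold change near 0 over all genes. The median of the 9 was -0.68, from -0.97 for Suclg1 to -0.25 for Fh1. In mean TPM, 2 of the 9 (Fh1 and Mdh2) were higher in ShPkm1. Of the 9, 7 fell in the ShPkm2-labelled libraries against shScr, where 34.2% of all genes were called lower and 33.9% higher. Of those 7, 4 (Idh3a, Idh3b, Mdh2 and Ogdh) were higher there in mean TPM. Cs and Fh1 were not called, and the median of the 9 was -0.37. Compared directly with ShPkm1, the ShPkm2-labelled libraries were higher in 4 enzymes (Cs, Idh3a, Idh3b and Ogdh) and lower in 0, against 25.7% of genes called higher and 27.3% lower, and the median of the 9 was 0.22. The first 2 comparisons share the shScr libraries and each hairpin group enters 2 comparisons, so the counts are not independent of each other.

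**Figure D2:**
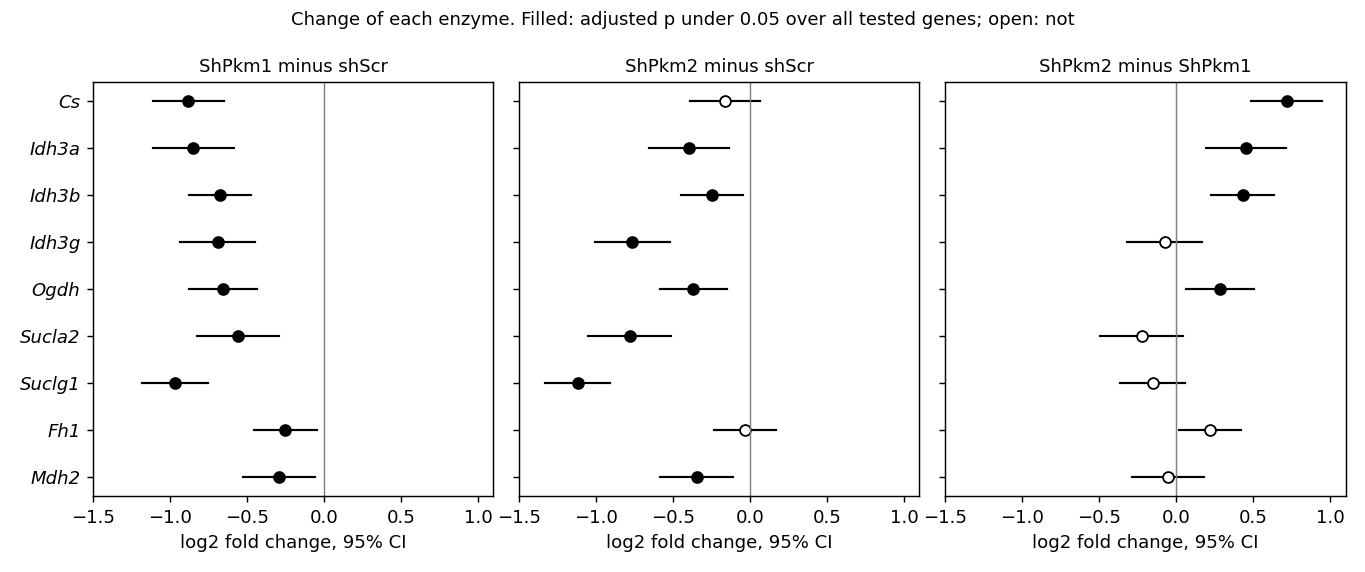
Log2 fold change of each enzyme with its 95% confidence interval (edgeR) in the 3 comparisons. Filled circles passed an adjusted p of 0.05 over all tested genes. In the left panel all 9 lie below 0, from -0.97 to -0.25. In the right panel Cs, at 0.72, is farthest above 0.

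The scale matters for the smaller changes. With the trimmed mean of M values (TMM), the main scaling, the median gene does not move. With library totals alone, the median of all genes moved by 0.19 in ShPkm1 against shScr and by 0.33 in the ShPkm2-labelled libraries. On log2(TPM + 1) with limma it moved by 0.31 and 0.36, and the share of calls that were higher went from 50.3% to 78.1% and from 49.8% to 75.7%. Changes below are with TMM, and so relative to the median gene, unless library totals or TPM are named. Values on those 2 scales are not taken relative to the median. Less the median, ShPkm2 minus shScr on log2(TPM + 1) was -0.07 for Cs, -0.29 for Idh3a and -0.18 for Idh3b. It was -0.29 for Ogdh, -0.25 for Mdh2 and 0.05 for Fh1. Cs, Idh3a, Idh3b, Idh3g, Ogdh and Suclg1 were called lower in ShPkm1 under all 15 alternatives run. For the ShPkm2-labelled libraries that held for Idh3g, Sucla2 and Suclg1, and in the direct comparison Cs and Idh3b were called higher under all 15. Other calls among the 9 depended on the scale or on single libraries.

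**Figure D3:**
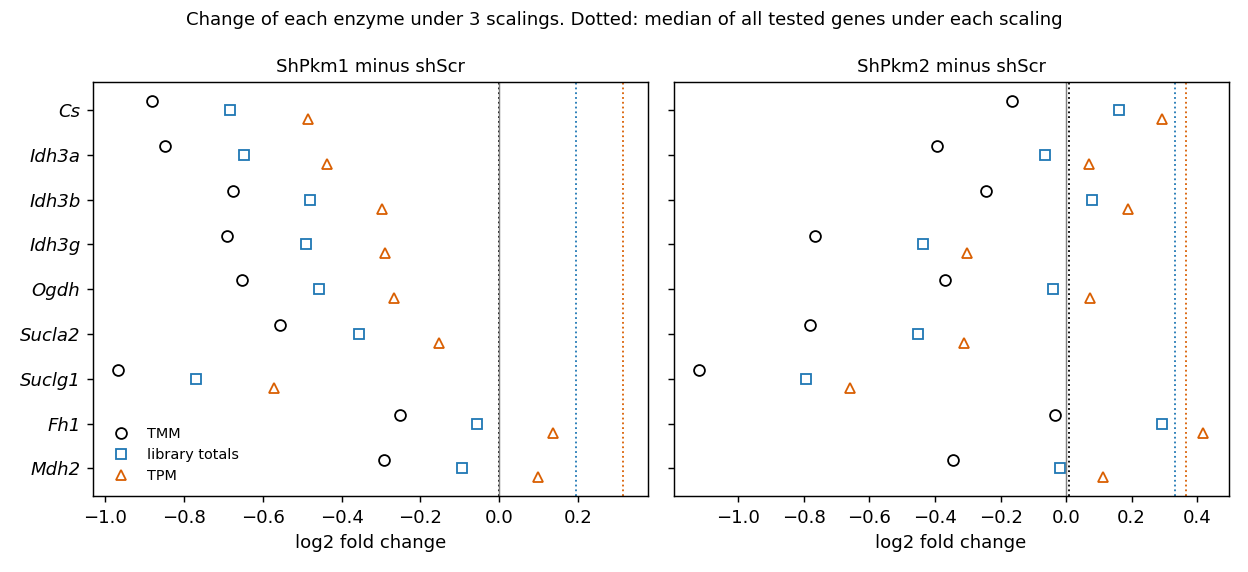
Log2 fold change of each enzyme (no error shown) with TMM, library totals or limma on log2(TPM + 1), and the median of all genes under each (dotted). The points of each gene shift together with the dotted lines. Suclg1 lies below 0 under all 3 in both panels, while Cs in the right panel runs from -0.16 to 0.29.

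Citrate synthase, the first enzyme of the cycle, separated the hairpin groups more than any other of the 9. Cs stood at 654.6 and 593.4 CPM (counts scaled to library size by TMM) in shScr, 338 and 339 in ShPkm1, and 546.7 and 566.8 in the ShPkm2-labelled libraries. No group overlapped another, and ShPkm1 was the low one. The log2 fold change against shScr was -0.88 in ShPkm1 (adjusted p 1.08e-05, SE 0.106), a level 1.84-fold lower. The libraries labelled ShPkm2 gave -0.16 against shScr (95% interval -0.39 to 0.06, adjusted p 0.180) and 0.72 against ShPkm1 (SE 0.106, adjusted p 7.76e-05). In TPM the order of shScr and the ShPkm2-labelled libraries was turned, with a log2 fold change of 0.29 on log2(TPM + 1) that was called higher (adjusted p 0.0148 in limma). Cs (NCBI gene 12974) lies on chromosome 10 of GRCm38, from 128337727 to 128362482 on the plus strand.

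The ratio of 2 genes in a library does not depend on how libraries are scaled. Set against Suclg1, Cs gave 1.48 in both shScr libraries, 1.57 in both ShPkm1 libraries, and 2.89 and 2.85 in those labelled ShPkm2. The start regions of Cs and Suclg1 printed above thus belong to genes that kept nearly 1 ratio in shScr and ShPkm1 and parted in the ShPkm2-labelled libraries. These and the ratios below are given as values, with no test.

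**Figure D4:**
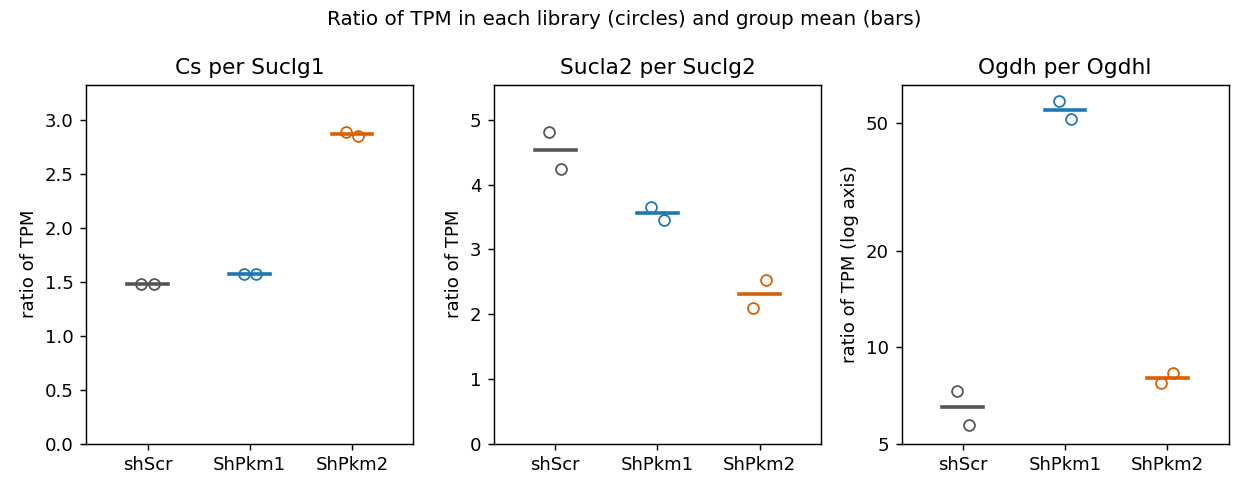
Ratio of TPM within each library (circles, with bars for the mean of 2) for Cs per Suclg1, Sucla2 per Suclg2 and Ogdh per Ogdhl, the last on a log axis. Cs per Suclg1 is near 1.5 in shScr and ShPkm1 and near 2.9 in the ShPkm2-labelled libraries, and Ogdh per Ogdhl is above 50 in ShPkm1.

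The NAD-dependent isocitrate dehydrogenase, which commits isocitrate to oxidation, is built of a catalytic alpha subunit and the beta and gamma subunits. All 3 genes fell in ShPkm1. Idh3a had 126.7 and 96.6 CPM in shScr, 62.7 and 61.2 in ShPkm1, and 82.5 and 87.2 in the ShPkm2-labelled libraries, and the shScr pair was the widest apart. Its change in ShPkm1 against shScr was -0.85 (SE 0.122, adjusted p 5.10e-05). With the other hairpin it was -0.40 (adjusted p 0.0102), a call that was lost with library totals, on TPM and without shScr replicate 1 (-0.19, adjusted p 0.108) or ShPkm2 replicate 1 (-0.35, adjusted p 0.0797). Between the hairpin groups Idh3a was 0.45 higher in the ShPkm2-labelled libraries (adjusted p 0.00671), with an adjusted p of up to 0.0657 when ShPkm1 replicate 1, ShPkm1 replicate 2 or ShPkm2 replicate 2 was left out.

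Idh3b, the beta subunit, had 181.8 and 181.6 CPM in shScr, 115.9 and 111.5 in ShPkm1, and 149.9 and 156.9 in the ShPkm2-labelled libraries, again with ShPkm1 lowest and no overlap. The change in ShPkm1 was -0.68 (SE 0.0940, adjusted p 3.83e-05). With the other hairpin it was -0.24 (adjusted p 0.0323), which held in 6 of the 15 alternatives. It was lost when any 1 of the 4 hairpin libraries was left out (adjusted p 0.0596 to 0.204), and the sign turned with library totals and on TPM. Against ShPkm1 it was 0.43 higher (SE 0.0937, adjusted p 0.00168). Idh3g, the gamma subunit, took another course. It had 305 and 250.3 CPM in shScr, 165 and 179 in ShPkm1, and 158 and 168 in the ShPkm2-labelled libraries, so the hairpin groups overlapped and both lay below shScr. Idh3g changed by -0.69 in ShPkm1 (SE 0.112, adjusted p 0.000147) and by -0.77 with the other hairpin (SE 0.113, adjusted p 4.57e-05), both against shScr, and by -0.07 between the hairpin groups (95% interval -0.32 to 0.17, adjusted p 0.598).

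Idh3a per Idh3g in TPM was 0.224 and 0.209 in shScr, 0.206 and 0.185 in ShPkm1, and 0.282 and 0.281 in the ShPkm2-labelled libraries. Idh3b per Idh3g was 0.528 and 0.644 in shScr, 0.616 and 0.547 in ShPkm1, and 0.827 and 0.815 in the ShPkm2-labelled libraries. For both ratios the ShPkm2-labelled libraries lay above all 4 others. Idh3a per Idh3b, from 0.325 to 0.425 in shScr and from 0.334 to 0.345 in the other groups, overlapped. The genes lie on chromosomes 9 (Idh3a, 54586511 to 54604662), 2 (Idh3b, 130279309 to 130284451, minus strand) and X (Idh3g, 73778963 to 73786897, minus strand) of GRCm38.

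Transcripts within Idh3b and Idh3g were also read singly. Of the 9 genes, 5 have 1 transcript in the table, and 21 member transcripts were tested among 33433. Called transcripts numbered 9 in ShPkm1 against shScr (all lower), 6 in the ShPkm2-labelled libraries (all lower) and 5 between the hairpin groups (3 higher, 2 lower), where 10.8%, 17.2% and 7.91% of all transcripts were called in either direction. The following transcripts were singled out after their values were seen, and the division of reads between transcripts of a gene is the authors' estimate. The minor Idh3b model XM_006498824.3 had 349 and 274 estimated counts in shScr, 104 and 102 in ShPkm1, and 28 and 35 in the ShPkm2-labelled libraries. It fell by 3.61 on the log2 scale in the ShPkm2-labelled libraries against shScr (SE 0.321, adjusted p 0.00400), and this held under every alternative run for it. Its fall in ShPkm1 (-1.78, adjusted p 0.0301) and between the hairpin groups (-1.84, adjusted p 0.0343) lost the call under the replicate block (adjusted p 0.0833 and 0.0960) and when any 1 library was left out (adjusted p up to 0.155 and 0.173).

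The major Idh3b transcript NM_130884.4 changed by -0.56 in ShPkm1 (adjusted p 0.0158, up to 0.111 when 1 library was left out, and 0.0539 with library totals) and gave -0.07 in the ShPkm2-labelled libraries (adjusted p 0.576). Between the hairpin groups it gave 0.48 (adjusted p 0.0248, but 0.0695 with the replicate block and up to 0.160 when 1 library was left out). The share of Idh3b TPM held by the minor model went from 13.8% and 9.75% in shScr to 5.50% and 5.31% in ShPkm1 and 1.01% and 1.25% in the ShPkm2-labelled libraries. In Idh3g, the minor model XM_017318392.1 had 238 and 212 counts in shScr, 162 and 172 in ShPkm1, and 36 and 42 in the ShPkm2-labelled libraries. Against shScr it fell by 2.83 on the log2 scale in the last group (SE 0.275, adjusted p 0.00497), which held under every alternative run for it, and gave -0.61 in ShPkm1 (adjusted p 0.234). The major Idh3g transcript NM_008323.1 fell by 1.02 in the ShPkm2-labelled libraries (adjusted p 0.00397). In ShPkm1 it changed by -0.66 (adjusted p 0.0188, but 0.0591 with the replicate block and up to 0.118 when 1 library was left out). A further Idh3g model, XM_006527844.1, had 507 counts in 1 shScr library and 42 in the other, and nothing was read from it. The model XM_006527843.3 was called lower in ShPkm1 against shScr (-0.82, adjusted p 0.0361) and higher in the ShPkm2-labelled libraries than in ShPkm1 (0.77, adjusted p 0.0487). For XM_017318392.1 the latter difference was -2.23 (adjusted p 0.0161, but 0.0569 with the replicate block and 0.0893 to 0.105 when 1 of the 4 hairpin libraries was left out). The alternatives were not run for XM_006527843.3.

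**Figure D5:**
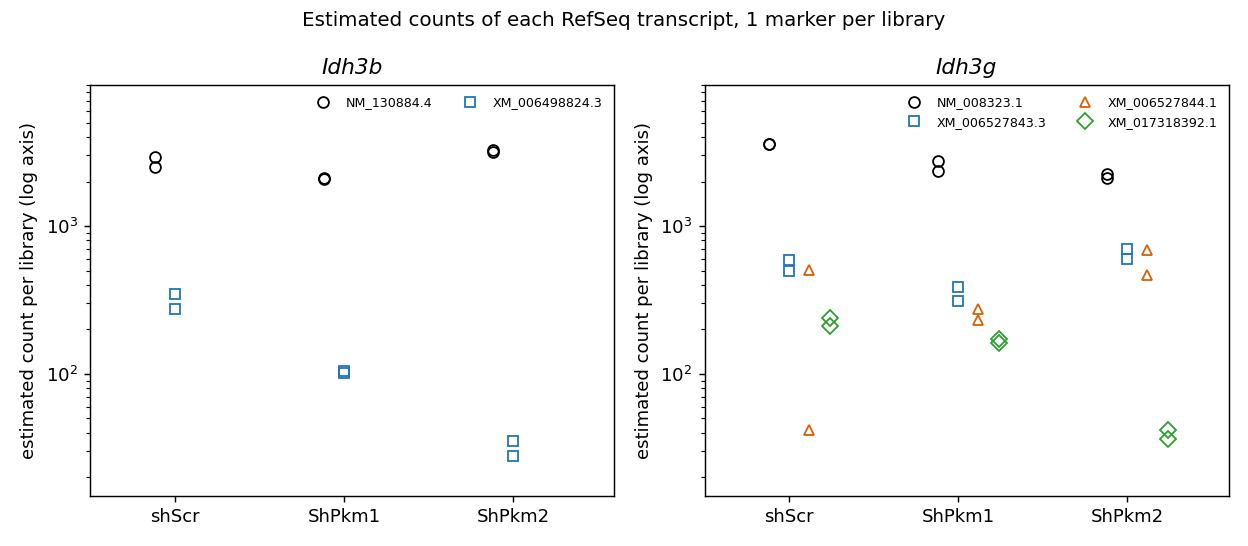
Estimated counts (log axis) of each RefSeq transcript of Idh3b and Idh3g, 1 marker per library. The minor models XM_006498824.3 and XM_017318392.1 lie below 50 counts in the ShPkm2-labelled libraries and above 200 in shScr, while the major transcripts stay at 2073 or more in all.

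Oxoglutarate dehydrogenase turns 2-oxoglutarate into succinyl-CoA, and its E1 subunit is made from Ogdh or, in fewer tissues, from the related gene Ogdhl. Ogdh had 438.7 and 405.5 CPM in shScr, 262.7 and 274 in ShPkm1, and 338 and 315.7 in the ShPkm2-labelled libraries. The groups did not overlap, and ShPkm1 was lowest. It fell in ShPkm1 (-0.65, SE 0.102, adjusted p 0.000106). The change in the ShPkm2-labelled libraries against shScr was -0.37 (adjusted p 0.00582), a call lost with library totals, on TPM, where the sign turned, and without ShPkm2 replicate 2 (adjusted p 0.0780). Between the hairpin groups it was 0.28 (adjusted p 0.0312), lost when any 1 of the 4 hairpin libraries was left out (adjusted p 0.0841 to 0.231). Ogdh lies on chromosome 11 from 6291597 to 6359094. It has 9 transcripts in the table, of which XM_006514585.2 held between 81.4% and 85.1% of its TPM in every library.

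Ogdhl changed far more. It had 821 and 1085 estimated counts in shScr, 73 and 91 in ShPkm1, and 807 and 683 in the ShPkm2-labelled libraries. Its log2 fold change in ShPkm1 against shScr was -3.74 (SE 0.150, adjusted p 4.34e-10), a level 13.3-fold lower. The ShPkm2-labelled libraries gave -0.68 (adjusted p 0.000197, and up to 0.268 on TPM), and between the hairpin groups 3.05 (SE 0.151, adjusted p 2.37e-09). Ogdh per Ogdhl in TPM was 7.29 and 5.74 in shScr, 58.5 and 51.5 in ShPkm1, and 7.72 and 8.32 in the ShPkm2-labelled libraries. Dlst, the E2 subunit that Ogdh works with, gave -0.66 and -0.61 against shScr, and Dld, the E3 subunit shared with pyruvate dehydrogenase, -0.26 in each comparison with shScr, all called. The Dld calls were close to the threshold (adjusted p 0.0403 and 0.0381), and in TPM the order was turned, with 60.0 and 58.8 in shScr and 62.5 to 68.3 in the hairpin libraries.

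Succinyl-CoA ligase pairs the alpha subunit Suclg1 with Sucla2 in its ATP-forming form or with Suclg2 in its GTP-forming form. Suclg1 had 212.7 and 191 CPM in shScr, 103 and 103.5 in ShPkm1, and 90.3 and 95.4 in the ShPkm2-labelled libraries. Both hairpin groups lay far below shScr and close to each other. It fell more than any other of the 9 in both comparisons with shScr, with log2 fold changes of -0.97 in ShPkm1 (SE 0.0985, adjusted p 2.47e-06) and -1.12 with the other hairpin (SE 0.0988, adjusted p 3.84e-07), levels 1.96-fold and 2.17-fold lower. Between the hairpin groups it gave -0.15 (95% interval -0.37 to 0.06, adjusted p 0.209). Suclg1 lies on chromosome 6 from 73248505 to 73276907.

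Sucla2 had 119 and 91.2 CPM in shScr, 70.4 and 72.5 in ShPkm1, and 57.6 and 64.7 in the ShPkm2-labelled libraries, an order in which no groups overlapped. It changed by -0.56 in ShPkm1 (SE 0.124, adjusted p 0.00157), which was not called on TPM (-0.15, adjusted p 0.243) and was -0.35, still called, without shScr replicate 1, and by -0.78 in the ShPkm2-labelled libraries (SE 0.124, adjusted p 8.92e-05). The hairpin groups differed by -0.23 (adjusted p 0.145), which passed the threshold in a fit of those groups alone and without either shScr library (adjusted p 0.0223 to 0.0259). Suclg2, the GTP-forming partner, went the other way between the hairpin groups, 0.46 higher in the ShPkm2-labelled libraries (adjusted p 0.00207), with 0.21 against shScr there (adjusted p 0.0916) and -0.26 in ShPkm1 (adjusted p 0.0481), where TPM had the opposite order (15.6 and 15.3 in shScr, 17.4 and 17.9 in ShPkm1). Sucla2 per Suclg2 in TPM was 4.82 and 4.24 in shScr, 3.65 and 3.46 in ShPkm1, and 2.10 and 2.53 in the ShPkm2-labelled libraries, with no overlap. Suclg1 per sum of both beta subunits was 2.27 and 2.62 in shScr and between 1.63 and 1.77 in the 4 hairpin libraries. Sucla2 lies on chromosome 14 from 73552786 to 73596144.

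Fumarate hydratase and malate dehydrogenase close the cycle. In ShPkm1 against shScr they had the smallest changes of the 9. Fh1 had 100 and 92.8 CPM in shScr, 79.8 and 82.1 in ShPkm1, and 94.7 and 93.8 in the ShPkm2-labelled libraries, which lay between the shScr libraries. Fh1 changed by -0.25 in ShPkm1 (SE 0.0946, adjusted p 0.0324), a call kept in 5 of 15 alternatives, lost when any library but shScr replicate 2 was left out (adjusted p up to 0.182), and turned to 0.14 on TPM. Against shScr it gave -0.03 in the ShPkm2-labelled libraries (95% interval -0.24 to 0.17, adjusted p 0.769), but 0.29 with library totals and 0.42 on log2(TPM + 1), both called. Fh1 gave 0.22 between the hairpin groups (SE 0.0941, adjusted p 0.0661), which passed the threshold in 6 alternatives, among them library totals (0.35, adjusted p 0.00791) and log2(TPM + 1) (0.28, adjusted p 0.0338). Mdh2 had 658 and 585 CPM in shScr, 489 and 526.5 in ShPkm1, and 482.7 and 495.7 in the ShPkm2-labelled libraries. It changed by -0.29 in ShPkm1 (SE 0.109, adjusted p 0.0322), a call kept in 5 of 15 alternatives, lost with the replicate block (adjusted p 0.0544), with library totals (-0.09, adjusted p 0.437), on log2(TPM + 1), where the sign turned (0.10), and without any library but shScr replicate 2 (adjusted p up to 0.230). In the ShPkm2-labelled libraries it changed by -0.35 (adjusted p 0.0127), a call lost without either library of that group (adjusted p 0.0632 and 0.0965), with library totals and on TPM. Between the hairpin groups Mdh2 gave -0.05 (95% interval -0.29 to 0.18). Fh1 lies on chromosome 1 from 175601378 to 175625635 and Mdh2 on chromosome 5 from 135778649 to 135790386.

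Of the 9 other TCA cycle enzymes, 7 fell in ShPkm1 and none rose, with a median of -0.30, where 31.4% of all genes were called lower and 31.8% higher. In mean TPM, 3 of those 7 (Dld, Sdha and Suclg2) were higher in ShPkm1. With the other hairpin 7 fell and 1 rose (median -0.61), against 34.2% and 33.9% of all genes, and Dld and Sdha of those 7 were higher in mean TPM. Between the 2 hairpin groups 3 were higher and 1 lower in the ShPkm2-labelled libraries (median 0.05), against 25.7% and 27.3% of all genes. Sdhd and Sdhb, the membrane anchor and iron-sulfur subunits of succinate dehydrogenase, fell, by log2 fold changes of -1.20 and -1.05 in ShPkm1 and -0.76 and -0.83 in the ShPkm2-labelled libraries. The exception was Idh2, the NADP-dependent mitochondrial isocitrate dehydrogenase. It rose by 0.39 in the ShPkm2-labelled libraries against shScr (SE 0.102, adjusted p 0.00441), with 190 and 182 CPM in shScr and 243 and 244 there, while ShPkm1 gave -0.23 (adjusted p 0.0617).

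The cytosolic and malic counterparts moved in both directions. In what follows, values given in pairs are log2 changes against shScr in ShPkm1 and then in the ShPkm2-labelled libraries, and rose and fell mark those that passed the test. Of 8 genes, 2 rose and 4 fell in ShPkm1, and 3 rose and 3 fell in the ShPkm2-labelled libraries, beside 31.8% of all genes called higher and 31.4% lower in the first comparison and 33.9% and 34.2% in the second. In the direct comparison, 5 of the 8 were higher in the ShPkm2-labelled libraries than in ShPkm1 and 0 lower (median 0.29). Over all genes 25.7% were higher and 27.3% lower there. Idh1, the cytosolic NADP-dependent isocitrate dehydrogenase, rose in both groups, 2.00-fold and 2.15-fold, from 45.8 and 53.1 CPM in shScr to 100.5 and 97.5 in ShPkm1 and 108 and 105 in the ShPkm2-labelled libraries. Me1, the cytosolic malic enzyme that makes NADPH, rose by 0.52 and 0.79. Me2, a mitochondrial malic enzyme, fell by 0.25 in ShPkm1 (adjusted p 0.0346), although its mean TPM was not lower there (25.0 in shScr, 26.7 in ShPkm1), and rose by 0.74 in the ShPkm2-labelled libraries, and the other mitochondrial one, Me3, fell by 1.42 and 1.68. Mdh1, the cytosolic malate dehydrogenase, fell by 0.91 and 0.56, the second a call lost with library totals (-0.23, adjusted p 0.0669) and on log2(TPM + 1) (-0.10, adjusted p 0.360). Mdh2 per Mdh1 in TPM was therefore 3.911 and 3.999 in shScr, 5.97 and 6.19 in ShPkm1, and 4.90 and 4.31 in the ShPkm2-labelled libraries.

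Among 13 enzymes and carriers that bring carbon into the cycle or out of it, 3 rose and 6 fell in ShPkm1, and 6 rose and 6 fell in the ShPkm2-labelled libraries, beside the same shares of all genes (31.8% and 31.4%, then 33.9% and 34.2%). Of the last 6, Slc25a11 was higher in mean TPM. Pcx, which makes oxaloacetate from pyruvate, fell in both, by 1.77 and 1.65, from 181.7 and 183 CPM in shScr to between 50.1 and 62.8 in the hairpin libraries. The citrate carrier Slc25a1 rose in both, by 1.34 and 0.69. Compared directly, 3 of the 13 were higher and 3 lower in the ShPkm2-labelled libraries than in ShPkm1, close to the 25.7% and 27.3% over all genes. Pck2, the mitochondrial enzyme that makes phosphoenolpyruvate from oxaloacetate, had 57.4 and 50.5 CPM in shScr, 196 and 219.5 in ShPkm1, and 70.7 and 66.1 in the ShPkm2-labelled libraries, and was 1.60 lower on the log2 scale in the last group than in ShPkm1 (log2 fold change -1.60, adjusted p 4.34e-08). Gpt2, the mitochondrial alanine transaminase, fell by 2.72 in the ShPkm2-labelled libraries against shScr, from 217.8 and 158.5 CPM to 28.7 and 28.3, and gave -0.28 in ShPkm1 (adjusted p 0.0740). Slc25a13, an aspartate and glutamate carrier, was low, with 14 and 16 estimated counts in shScr, 21 and 16 in ShPkm1, and 86 and 94 in the ShPkm2-labelled libraries, and was 2.14 higher on the log2 scale there than in ShPkm1 (adjusted p 3.03e-05). Slc25a10, the dicarboxylate carrier, fell by 0.65 in ShPkm1, a call lost on log2(TPM + 1) (-0.24, adjusted p 0.150), rose by 0.42 in the ShPkm2-labelled libraries, and differed by 1.07 between them (adjusted p 2.99e-06).

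The last list held genes of mitochondrial import, chaperones and outer-membrane channels. Of 18, 12 fell and 1 rose in ShPkm1 (median -0.49), and 10 fell and 2 rose in the ShPkm2-labelled libraries (median -0.37), where 31.4% and 34.2% of all genes were called lower and 31.8% and 33.9% higher. Of the 10, 3 (Phb2, Tomm40 and Vdac3) were higher in mean TPM. The import receptor Tomm20 fell by 1.17 and 0.73 and the prohibitin Phb by 1.02 and 0.90. Hspd1, the matrix chaperonin, rose in both, by 0.46 and 1.16. The medians of the TCA cycle enzymes, -0.68 and -0.37, stand beside these as a description, with no test of the difference. In the direct comparison, 6 of the 18 were higher in the ShPkm2-labelled libraries than in ShPkm1 and 1 lower (median 0.13). Over all genes 25.7% were higher and 27.3% lower there.

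The tested genes with the courses most like the mean of the 9 enzymes over the 6 libraries were Pip4k2b, Ubap1, Synrg, Ubap2 and Cox5a. Likeness was the root mean square difference of centred log2 CPM, among 10944 other genes averaging 50 counts or more, and ran from 0.0145 for Pip4k2b to 0.0405 for Cox5a, a subunit of cytochrome c oxidase. By the same measure the enzymes themselves lay between 0.0695 (Ogdh) and 0.267 (Suclg1) from their own mean, so Ogdh was the one nearest to it and Suclg1 the farthest. The 5 genes were picked as the smallest of 10944 distances over 6 libraries, and the enzymes were not picked by distance. The 2 ranges therefore do not show which genes are more alike.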

How the data were processed

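Libraries of total RNA from C2C12 cells were grouped by sample title. The deposited table has 1 row for each of 57920 RefSeq transcripts. Per the file headers the authors gave an estimated count, a TPM and an FPKM value per transcript and library, and 9 columns of group means. The FPKM values deposited by the authors and the group means were not used here. HISAT, StringTie, Bowtie, RSEM, DESeq2 and the build mm10 are named in the submitters' processing notes, without versions or roles. Strandedness is not given in the sources used here.

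Deposited estimated counts were summed per NCBI gene (17558 genes, 17445 matched to a symbol) and rounded. Genes were filtered with filterByExpr (minimum count 10, minimum total 15), scaled by TMM and tested with edgeR 4.0.16 in R 4.3.3. The quasi-likelihood F-test (two-sided) was fitted to all 6 libraries with 1 coefficient per group and no replicate block. P-values were adjusted by Benjamini-Hochberg over all 12643 genes, threshold 0.05. The same fit was run on 33433 transcripts. Each standard error was computed from the log2 fold change and the F statistic. TPM values, which the authors deposited already adjusted for length, were summed per gene for levels and ratios. Floors and intervals from counts were not needed, as no member was near 0.

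Alternatives were DESeq2 size factors, library totals, no filter, DESeq2 1.42.0, a higher filter (mean of 50 counts), a fit without the third group, a replicate block, limma 3.58.1 on log2(TPM + 1) and log2(TPM + 0.1), and leaving out each library. The alternatives for transcripts and for genes of the other lists were chosen after seeing the data. The code was tested on simulated counts. The 9 enzymes and all lists were chosen with earlier results of these data known. Named were the 9 enzymes, Pkm, up to 3 called genes with the largest changes in each direction per other list and comparison, and the 5 genes most like the enzymes' mean. Dlst, Dld and Suclg2 were named beside them as partner subunits, and single markers and genes whose TPM had the opposite order were named too, after their values were seen. Results of some genes of the other lists are not reported here.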

Additional observations from a re-analysis of the deposited data

How the results depend on the processing

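Over 15 alternatives the 9 enzymes gave between 6 and 9 lower calls in ShPkm1 against shScr and 0 higher ones. In the ShPkm2-labelled libraries against shScr, the 7 lower calls became 3 with library totals and 3 on TPM with either pseudocount, and 4 to 7 when 1 library was left out. Higher calls there went from 0 to 1 with library totals and 2 on TPM. Between the hairpin groups, leaving out 1 library gave 2 to 5 higher and 0 to 1 lower calls, and a fit of those groups alone gave 1 lower call. The number of calls over all genes also moved when 1 library was left out, so these counts are not a change in the 9 enzymes alone. Over all genes, limma on log2(TPM + 1) and log2(TPM + 0.1) gave 6189 and 6202 higher and 1737 and 1735 lower calls in ShPkm1, where TMM gave 4018 and 3966. In the ShPkm2-labelled libraries it gave 6621 and 6642 higher and 2123 and 2142 lower calls, against 4283 and 4319, and library totals gave 2702 lower.

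Signs turned mostly with the scale, which moved the median gene by up to 0.45. The library-total and TPM values that follow are not taken relative to that median. With library totals, ShPkm2 minus shScr became 0.16 for Cs, 0.29 for Fh1, 0.0804 for Idh3b and 0.22 for the Idh3b transcript NM_130884.4, and ShPkm2 minus ShPkm1 became 0.0558 for Idh3g and 0.0770 for Mdh2. On log2(TPM + 1) and log2(TPM + 0.1), ShPkm2 minus shScr became 0.29 and 0.29 for Cs, 0.42 and 0.42 for Fh1, 0.0708 and 0.0719 for Idh3a, 0.19 and 0.19 for Idh3b, 0.11 and 0.11 for Mdh2 and 0.0742 and 0.0746 for Ogdh. On the same scales ShPkm1 minus shScr became 0.14 and 0.14 for Fh1 and 0.10 and 0.10 for Mdh2, and ShPkm2 minus ShPkm1 became 0.0127 and 0.0128 for Mdh2. Leaving out 1 library moved Fh1 in ShPkm2 minus shScr between -0.0842 and 0.0217, and Mdh2 in ShPkm2 minus ShPkm1 between -0.12 and 0.0006.

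The replicate numbers did not pair the libraries: deviations of same-numbered libraries correlated across genes at -0.03, 0.04 and 0.05 for the 3 comparisons. With the replicate number as a block, 8 enzymes were lower in ShPkm1 and 7 in the ShPkm2-labelled libraries, and 4 were higher between the hairpin groups. The share of all genes called with the block is not given here. Of the calls over all genes with it, 50.4%, 49.9% and 48.4% were higher ones in the 3 comparisons. With 2 libraries a group, small changes such as those of Fh1 and Mdh2 are near what this design can resolve.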
